A study of Mus musculus with 653 samples.

Results

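The genes described here are 40 mouse genes of the G2 and M phases of the cell cycle, taken as a list of known mitotic genes. They make up 40 of the 54195 genes in the count table. Reads were found for 39 of them, and all 39 also passed the filter on low levels, 5 reads per 1000000 (RPM) over all cells, that left 11178 genes for comparison between groups. The remaining gene, *Prc1*, was listed at 0 in every cell. The levels of the genes were examined by stage, by sort and by lineages set through marker reads.

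The data are Smart-seq2 libraries of single cells, in which the cDNA of each sorted cell is amplified and sequenced without molecular identifiers. All groups came from crosses of Lgr5-EGFP-IRES-creERT2 males, on a C57BL/6 background, with MF1 females, and their GFP is expressed from the *Lgr5* locus. Cells positive for the hepatoblast surface antigen Liv2 and negative for CD31 and CD45 were collected from embryonic liver, either as bulk cells or as Lgr5-GFP+ cells. Of the cells, 414 came from E10.5, where 51% were Lgr5-GFP+ and the others bulk, and 239 from E13.5, where 80 were Lgr5-GFP+ and the others bulk. Library pools (5, run on 3 flow cells) are labelled, but animals, litters and sorting days are not. Each group therefore counts as 1 sample, no test between groups was possible, and the spread given here is the range over pools, whose relation to animals and sorts the labels do not give.

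Cells that divide make a large set of proteins only for the passage through G2 and mitosis. Cyclins A and B activate Cdk1 to start mitosis, condensin and topoisomerase II shape the chromosomes, kinesins and Aurora kinases build the spindle and attach it to kinetochores, and the anaphase-promoting complex with Cdc20 then destroys cyclin B so that the cell can divide. Transcription of these genes rises together late in the cycle under B-Myb, FoxM1 and NF-Y, and in quiescent cells it is held down by the DREAM complex, which acts at short promoter elements. In the embryonic liver, hepatoblasts, blood precursors and mesenchymal cells all proliferate.

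Reads per cell ranged from 463347 to 2279700, with a median of 1192740. A lineage class was given by more than 10 reads of *Afp*, *Klf1* or *Pdgfra* with 10 or fewer of the other markers. There were 61 Afp cells, 160 Klf1 cells, 150 Pdgfra cells, 10 cells with more than 1 marker and 272 cells with none. Of the Afp cells, 53 were E10.5 Lgr5-GFP+, 6 E10.5 bulk and 2 E13.5 Lgr5-GFP+. The Klf1 cells were 32 E10.5 bulk cells, 3 E13.5 Lgr5-GFP+ cells and otherwise E13.5 bulk cells, and the Pdgfra cells were 76 E10.5 bulk, 66 E10.5 Lgr5-GFP+, 7 E13.5 Lgr5-GFP+ and 1 E13.5 bulk cell. At least 3 markers of a wider list for their lineage were found in 98.4% of Afp cells (hepatoblast list), 98.8% of Klf1 cells (erythroid list) and 97.3% of Pdgfra cells (mesenchyme list, in which *Tcf21* was at 0). Each list includes the gene that set the class, so 1 of these markers was met by the rule itself. Although the labels call all cells liver hepatoblast cells, the hepatoblast list summed to 22832 RPM in Afp cells, 9.10 in Klf1 cells and 313 in Pdgfra cells. Of the cells with no marker, 29.4% held at least 3 markers of the erythroid list, 39% of the mesenchyme list and 8.82% of the endothelial list, so this class is mixed. Of 365 index pairs, 230 were used in more than 1 pool.

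The promoters of members are shown because the elements named above, a CCAAT box and the cell cycle homology region, recur in them. The 160 bases before the RefSeq transcription start in GRCm38.p6 are printed 5′ to 3′ on the strand of the gene, with capitals for the CCAAT box and for the 3 forms searched of the homology region, namely TTTGAA as well as TTTAAA as well as TTCGAA (on the opposite strand CCAAT reads ATTGG, while TTTGAA reads TTCAAA). The 5 genes encode cyclin B1 (chr13:100786487-100786646, minus strand), cyclin B2 (chr9:70421555-70421714, minus strand), the activator of the anaphase-promoting complex Cdc20 (chr4:118437344-118437503, minus strand), Polo-like kinase 1 (chr7:122159275-122159434, plus strand) and topoisomerase II alpha (chr11:99024190-99024349, minus strand).
Ccnb1: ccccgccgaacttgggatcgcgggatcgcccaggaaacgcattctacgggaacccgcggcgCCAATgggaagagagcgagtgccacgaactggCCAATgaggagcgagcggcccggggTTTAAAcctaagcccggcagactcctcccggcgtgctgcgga
Ccnb2: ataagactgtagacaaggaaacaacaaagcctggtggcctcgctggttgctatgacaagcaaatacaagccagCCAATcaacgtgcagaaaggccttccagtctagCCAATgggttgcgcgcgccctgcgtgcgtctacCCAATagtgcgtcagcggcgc
Cdc20: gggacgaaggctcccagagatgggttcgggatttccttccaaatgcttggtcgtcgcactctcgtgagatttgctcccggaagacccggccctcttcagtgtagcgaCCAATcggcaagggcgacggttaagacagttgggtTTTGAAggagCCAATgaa
Plk1: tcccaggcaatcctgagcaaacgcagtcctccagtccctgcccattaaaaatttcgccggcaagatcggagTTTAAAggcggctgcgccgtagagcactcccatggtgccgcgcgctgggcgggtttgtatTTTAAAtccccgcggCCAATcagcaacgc
Top2a: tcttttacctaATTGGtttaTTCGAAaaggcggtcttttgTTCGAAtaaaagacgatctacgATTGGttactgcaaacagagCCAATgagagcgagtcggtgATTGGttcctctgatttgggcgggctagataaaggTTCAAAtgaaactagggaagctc

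In *Ccnb1* the CCAAT boxes begin 99 and 67 bases before the start and TTTAAA 42 bases before it. *Ccnb2* has CCAAT at 87, 54 and 21 bases before the start, and none of the other motifs within the printed stretch. In *Cdc20*, TTTGAA at 18 bases lies between CCAAT boxes at 53 and 8 bases. *Plk1* has TTTAAA at 89 and 29 bases and CCAAT at 14, and *Top2a* has 4 CCAAT boxes of which the nearest lies at 58 bases, TTCGAA at 140 and 120 and TTTGAA at 23. Over the window from 250 bases before to 50 after the start, 34 of the 40 members were matched in the RefSeq table (*Aurkb*, *Ccna2*, *Cdc25c*, *Kif20a*, *Smc4* and *Tpx2* have no entry in it), beside 27025 genes in all. A CCAAT box on either strand occurred in 76.5% of matched members and in 41.1% of all genes. TTTGAA occurred in 79.4% of members and 20.2% of all genes, TTTAAA in 26.5% and 14.9%, and TTCGAA in 8.82% and 1.802%. CCAAT together with any of the other 3 motifs was found in 26 of the 34 members (76.5%), against 12.8% of all genes. *Nuf2*, *Nusap1* and *Tacc3* had none of the 4 motifs in the window. These are matches of letters and not measured binding.

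Per exon length, the most abundant members over all cells were the ubiquitin-conjugating enzyme of the anaphase-promoting complex *Ube2c*, at 244 RPKM (RPM divided by the exon length in kilobases), followed by *Ccnb2*, *Cdc20* at 150.8, survivin *Birc5* at 144.1 and the condensin subunit *Smc4* at 106.4. *Cdk1*, the kinase that cyclin B activates, stood at 92.4 RPKM. At the low end were the cytokinesis scaffold *Anln* at 6.40 RPKM, the kinetochore protein *Nuf2* at 6.602, the kinesin *Kif20a* at 7.63, the phosphatase *Cdc25c* at 7.89 and the checkpoint kinase *Ttk* at 8.82. More than 10 reads of *Smc4* were found in 77.5% of cells, of *Birc5* in 75.8% and of *Top2a* in 72%, while *Cdc25c* reached this in 19.9% and *Anln* in 21.8%. The counting is not stated to have used strand, and a gene on the opposite strand overlaps 29.3% of the exon length of *Kif20a* (*Cdc23*), 22.8% of *Ube2c* (*Tnnc2*), 15.1% of *Kif4* (*Pdzd11*), 12.7% of *Cdc25c* (*Gm3550*) and 12.5% of *Ccna2* (*Exosc9*), so reads in the shared part may come from either gene. *Prc1* (chr7:80294450-80316259, plus strand), which bundles the microtubules of the central spindle, was listed at 0 in all cells, as were *Bub3*, *Kif18b* and *Wee1* of a further list of mitotic genes, and a gene listed at 0 is not shown to be silent.

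Cells were called mitotic-high when at least 20 of the 40 members each had more than 10 reads. By this rule 271 cells (41.5% of all) were mitotic-high, and 62 cells lay near the limit, with 18 to 21 members. The call depended on the library pool. In pools 1 and 2, 26 of 283 cells were mitotic-high (9.19%, exact Clopper-Pearson 95% interval 6.09 to 13.2), and in pools 3 to 5, 245 of 370 (66.2%, 61.2 to 71). Such intervals cover the counting error of cells only, since cells are not replicates of a group. The reads of all members summed to 8277 RPM in pools 1 and 2 and to 7149 RPM in pools 3 to 5, so the pools differed little and in the opposite direction in the amount of mitotic reads. What differed was their spread over cells and genes. The members had more than 10 reads in a median of 20.9% of cells in pools 1 and 2 and 57.6% in pools 3 to 5. Over all genes tested these medians were 7.77% and 32.2%, so they differed in the same direction. Median reads per cell were between 1144098 and 1258819 in every pool, while median genes per cell were 4515 and 4488 in pools 1 and 2 and 6606, 6550 and 6280.5 in pools 3, 4 and 5. Mitotic-high cells had a median of 1175366 reads and 6643 genes, and the other cells 1214698 reads and 4731.5 genes. Counts of members per cell are therefore given by pool, beside the summed level.

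**Figure D1:**
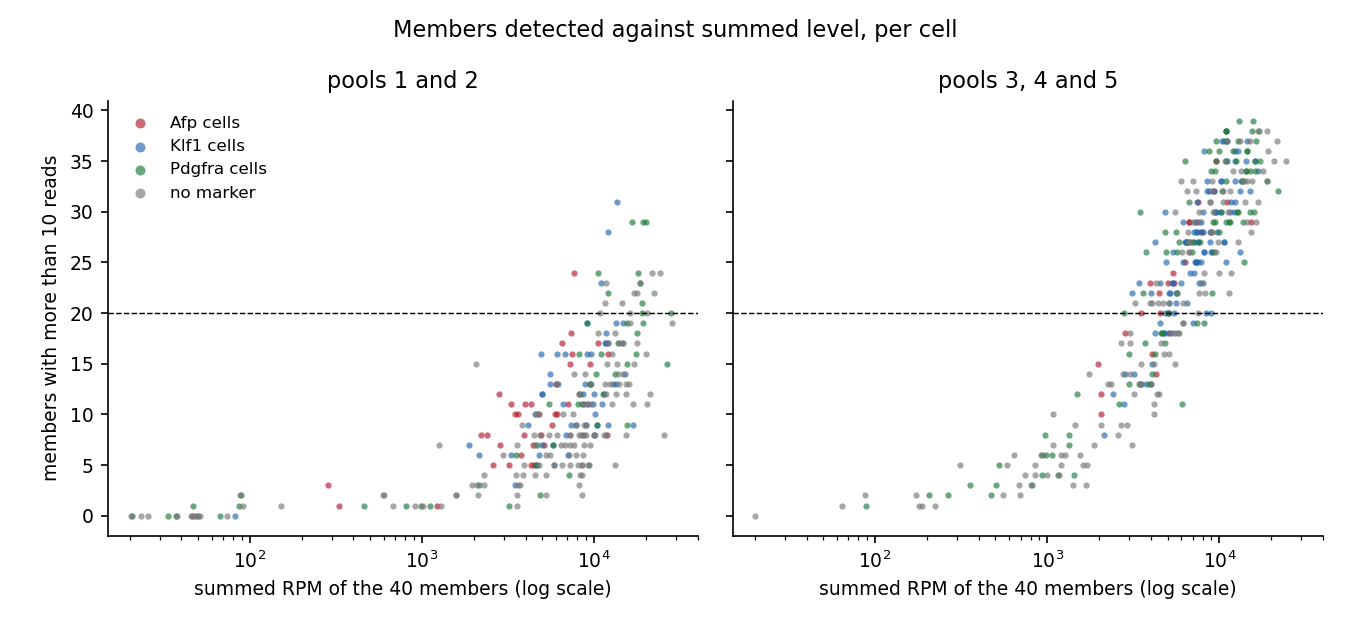
Members with more than 10 reads in each cell (y axis, linear) against the summed RPM of the 40 members in that cell (x axis, log scale), with pools 1 and 2 on the left and pools 3 to 5 on the right. Points are cells, the dashed line marks 20 members, and at like summed levels the cells of pools 3 to 5 show more members, with 66.2% of them mitotic-high against 9.19% in pools 1 and 2.

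Mitotic reads were less abundant in Afp cells than in Klf1 and Pdgfra cells. In Afp cells the members summed to 5438 RPM (exact Poisson 95% interval 5422 to 5455), with single cells from 285 to 15206 and a median of 4911. In Klf1 cells they summed to 8098 RPM (8085 to 8111), with cells from 82.5 to 16859 and a median of 7572. In Pdgfra cells they summed to 8723 RPM (8710 to 8737), with cells from 20.7 to 28029 and a median of 8601. The Poisson intervals cover the counting error of reads only, and amplified reads are not independent molecules. The ranges of cells overlapped almost wholly, so the classes differed in the balance of low and high cells. The members summed to 5201, 7436, 5520 and 4311 RPM in the Afp cells of pools 2 to 5 (pool 1 holds 3 such cells). In pools 1 to 5 they summed to 8407, 8681, 8388, 8248 and 6736 RPM in Klf1 cells and to 9955, 9900, 7941, 7739 and 8918 RPM in Pdgfra cells. In each of pools 2 to 5 the Afp cells were below both other classes, while Klf1 and Pdgfra cells changed order between pools.

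The shape of the distribution differed between classes. Among Klf1 cells, 2 of 160 summed to less than 2000 RPM of mitotic reads (1.25%, interval 0.152 to 4.44), against 30 of 150 Pdgfra cells (20%, 13.9 to 27.3), 4 of 61 Afp cells (6.56%) and 57 of 272 cells with no marker (21%, 16.3 to 26.3). At the other end, 61 of 150 Pdgfra cells reached 10000 RPM (40.7%, 32.7 to 49), against 44 of 160 Klf1 cells (27.5%, 20.8 to 35.1), 5 of 61 Afp cells (8.20%, 2.72 to 18.1) and 75 of 272 cells with no marker (27.6%, 22.4 to 33.3). Pdgfra cells thus had large shares at both ends, while few Klf1 cells lay at the low end. Both limits were chosen after the data had been seen.

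**Figure D2:**
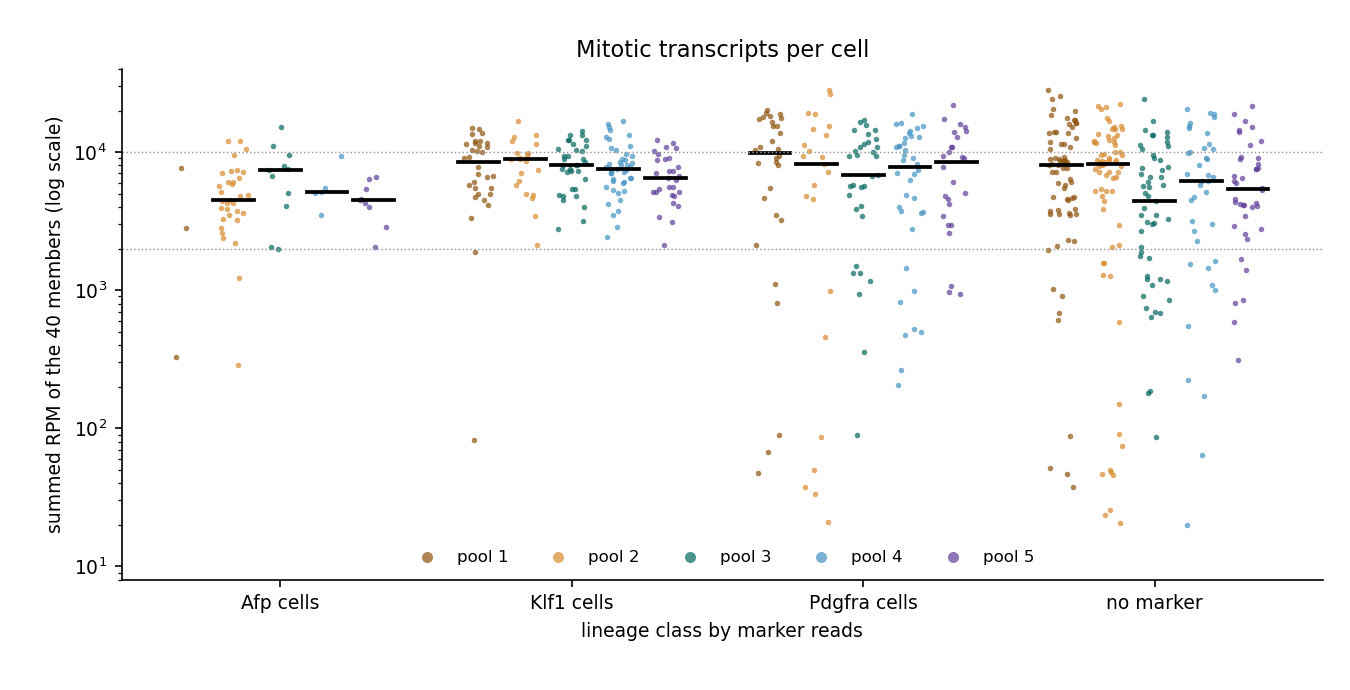
Summed RPM of the 40 members in each cell (y axis, log scale) by lineage class (x axis), with points coloured by library pool and bars at the median of pools with at least 5 cells. The dotted lines mark 2000 and 10000 RPM, and few Klf1 cells (1.25%) lie below the lower line, against 20% of Pdgfra cells.

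By the count of members, Klf1 cells had the largest share of mitotic-high cells. These were 95 of 160 Klf1 cells (59.4%, 51.3 to 67.1), 74 of 150 Pdgfra cells (49.3%, 41.1 to 57.6), 19 of 61 Afp cells (31.1%, 19.9 to 44.3) and 80 of 272 cells with no marker (29.4%, 24.1 to 35.2). A median of 23, 19, 14 and 11.5 members had more than 10 reads in these classes. After thinning to 400000 reads per cell the shares were 60%, 48.7%, 32.8% and 29%. These shares also differed between pools. In pools 3 to 5 92 Klf1 cells (86%, 77.9 to 91.9), 18 Afp cells (72%, 50.6 to 87.9), 64 Pdgfra cells (66%, 55.7 to 75.3) and 68 cells with no marker (51.5%, 42.7 to 60.3) were mitotic-high. In pools 1 and 2 they were 5.66% of 53, 2.78% of 36, 18.9% of 53 and 8.57% of 140, and there Pdgfra cells came first. The low share of Afp cells over all pools moved with their place in the pools, since pool 2 held 33 of the 61 (54.1%). The order of the classes thus differed between the sets of pools.

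Taken singly, most members were lower in Afp cells than in either other class. Called higher or lower here means a ratio of at least 2-fold, since no test was possible. Of 39 members, 33 were above 0 on the log2 scale in Klf1 against Afp cells, with a median log2 ratio of 0.77 against 0.00 over all 11178 genes, and the summed level was 1.49-fold higher. Past 2-fold, 12 members were higher and 0 lower, where 22.1% of all genes tested were higher and 27.3% lower. In Pdgfra against Afp cells 37 of 39 were above 0, with a median of 0.88 against 0.26 over all genes, and the summed level was 1.6-fold higher. Past 2-fold, 18 members were higher and 0 lower, where 30.2% of all genes were higher and 14.2% lower. The comparisons share the Afp cells, so they are not independent of each other, and the classes also differ in stage and sort. Within pools 2 to 5 the summed level was higher in Klf1 and in Pdgfra than in Afp cells in 4 of 4 pools, with log2 ratios from 0.17 to 0.74 and from 0.09 to 1.05. Higher in every pool were 17 members in Klf1 against Afp cells (1 lower in every pool) and 16 in Pdgfra against Afp cells (0 lower). Of all genes, 19.2% and 19.8% were higher in every pool and 19.3% and 14.6% lower.

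Among the cyclins and the control of Cdk1, cyclin B1 was lowest in Afp cells. *Ccnb1* (chr13:100778650-100786570, minus strand) had cell values from 0 to 664 RPM in Afp cells with a median of 18.8, from 0 to 860 with a median of 87.6 in Klf1 cells and from 0 to 1888 with a median of 87.3 in Pdgfra cells. All 3 classes held cells at 0, namely 15 of 61, 19 of 160 and 33 of 150. Over each class it stood at 83.6, 142.8 and 161.5 RPM, and it was above the Afp cells in 4 of 4 pools in either comparison (log2 ratios of 0.77 and 0.95). Its partner *Cdk1* did not follow this order. *Cdk1* (chr10:69335146-69352938, minus strand) had a median of 442 RPM in Afp cells (0 to 2275), 205.5 in Klf1 cells (0 to 2365) and 388 in Pdgfra cells (0 to 3446). Over the classes it stood at 512, 341 and 602 RPM, and Klf1 cells were below Afp cells in all 4 pools (log2 ratio −0.59). Of the 5 genes of this role, 3 were past 2-fold higher in Klf1 than in Afp cells and 1 in Pdgfra than in Afp cells. *Cdc25c*, the phosphatase that switches on Cdk1, had the largest ratio in both (31.8 and 54.2 RPM against 9.73, log2 ratios of 1.71 and 2.48), and it was detected in few cells.

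Among the genes of the anaphase-promoting complex and the spindle checkpoint, its activator *Cdc20* had a median of 17.8 RPM in Afp cells (0 to 820), 207.6 in Klf1 cells (0 to 2030) and a highest value of 3843 in Pdgfra cells. It was higher than in Afp cells in 4 of 4 pools in Klf1 cells (314 against 147.4 RPM, log2 ratio 1.09) and in 3 of 4 in Pdgfra cells (380 RPM, 1.37). *Ube2c* had medians of 208.3, 416 and 426 RPM in Afp, Klf1 and Pdgfra cells, with highest cells of 2652, 3277 and 4017 RPM. Its log2 ratios to Afp cells were 0.58 in Klf1 cells and 0.80 in Pdgfra cells, both short of 2-fold. *Ttk*, the kinase at the top of the checkpoint, went the other way in Klf1 cells, with 21.5 RPM over the class against 42.7 in Afp and 68.3 in Pdgfra cells. *Ttk* was at 0 in 87 of 160 Klf1 cells, 30 of 61 Afp cells and 68 of 150 Pdgfra cells. *Bub1*, a kinase of the same checkpoint, had log2 ratios near 0 to Afp cells (−0.21 in Klf1 and −0.01 in Pdgfra cells).

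Of the Polo and Aurora kinases and the passenger complex, all 5 were above 0 in both comparisons, with medians of 0.78 in Klf1 and 1.11 in Pdgfra against Afp cells. *Plk1* (chr7:122159439-122169873, plus strand), which acts from mitotic entry to cytokinesis, had medians of only 1.40, 10.3 and 3.77 RPM in Afp, Klf1 and Pdgfra cells, while its highest cells reached 1089, 2032 and 1870 RPM. More than 10 reads of it were found in 36.1%, 50% and 46% of these cells. Over the classes *Plk1* stood at 77.8, 170 and 188.7 RPM, far above the median cell, and it was higher than in Afp cells in 4 of 4 pools in both comparisons. *Aurkb*, the kinase of the passenger complex, stood at 77.5, 123.6 and 186.2 RPM (log2 ratios to Afp cells of 0.67 and 1.26). *Birc5*, a small subunit of the same complex, was far more evenly spread. Its medians were 389, 561 and 391 RPM, with 1 of 61, 2 of 160 and 7 of 150 cells at 0, and over the classes it stood at 385, 660 and 443 RPM.

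The kinetochore genes had the largest median log2 ratio of the 7 roles in Pdgfra against Afp cells, 1.76, with 4 of 5 genes past 2-fold. *Ndc80*, which binds kinetochores to microtubules, stood at 24.9 RPM in Afp cells, 69.8 in Klf1 cells and 95.1 in Pdgfra cells. The median cell had 0, 1.63 and 0.840 RPM of it, so in each class most cells had little or none. Its partner *Nuf2* had log2 ratios to Afp cells of 1.32 and 1.89. *Cenpf*, a large kinetochore protein, stood at 127.6, 117.5 and 299.9 RPM, and its median cell at 1.59, 7.41 and 69.8 RPM. It was higher in Pdgfra than in Afp cells in 4 of 4 pools (1.23) and close to the Afp level in Klf1 cells (−0.12).

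All 10 spindle genes were above 0 in both comparisons with Afp cells, 3 of them past 2-fold in Klf1 and 4 in Pdgfra cells. *Kif11*, the motor that pushes the spindle poles apart, stood at 37.1 RPM in Afp cells and 101.8 in Klf1 cells (log2 ratio 1.46, higher in 3 of 4 pools), and its ratio in Pdgfra cells was 1.70. *Tpx2*, which activates Aurora A on the spindle, had smaller ratios of 0.37 and 0.88, with medians of 1.59, 53.6 and 73.2 RPM per cell. Of the 5 cytokinesis genes with reads, 4 were past 2-fold higher in Pdgfra than in Afp cells, among them *Racgap1* (1.89, higher in 2 of 4 pools) and *Kif20a* (1.88), but 0 in Klf1 cells. *Ect2*, the activator of RhoA at the cleavage furrow, was below the Afp level in both (−0.77 and −0.39).

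The chromosome genes include the most widely detected member, *Smc4*. *Top2a* (chr11:98992943-99024189, minus strand) had a median of 327 RPM in Afp cells (0 to 1953), 359 in Klf1 cells (0 to 3192) and 402 in Pdgfra cells (0 to 3911). Its log2 ratios to Afp cells of 0.23 and 0.34 were small and the classes overlapped over nearly their whole range. *Smc4* had medians of 319, 575 and 414 RPM and was at 0 in 0 of 61, 1 of 160 and 5 of 150 cells. *Mki67* (chr7:135689784-135716361, minus strand), which coats mitotic chromosomes and is the common marker of cycling cells, had medians of 46.1, 385 and 74.6 RPM. The highest *Mki67* value of these classes, 4058 RPM, was in an Afp cell. Over the classes *Mki67* stood at 204.1, 481.1 and 211.2 RPM, higher in Klf1 than in Afp cells in 4 of 4 pools (log2 ratio 1.24) and nearly level between Pdgfra and Afp cells (0.05).

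**Figure D3:**
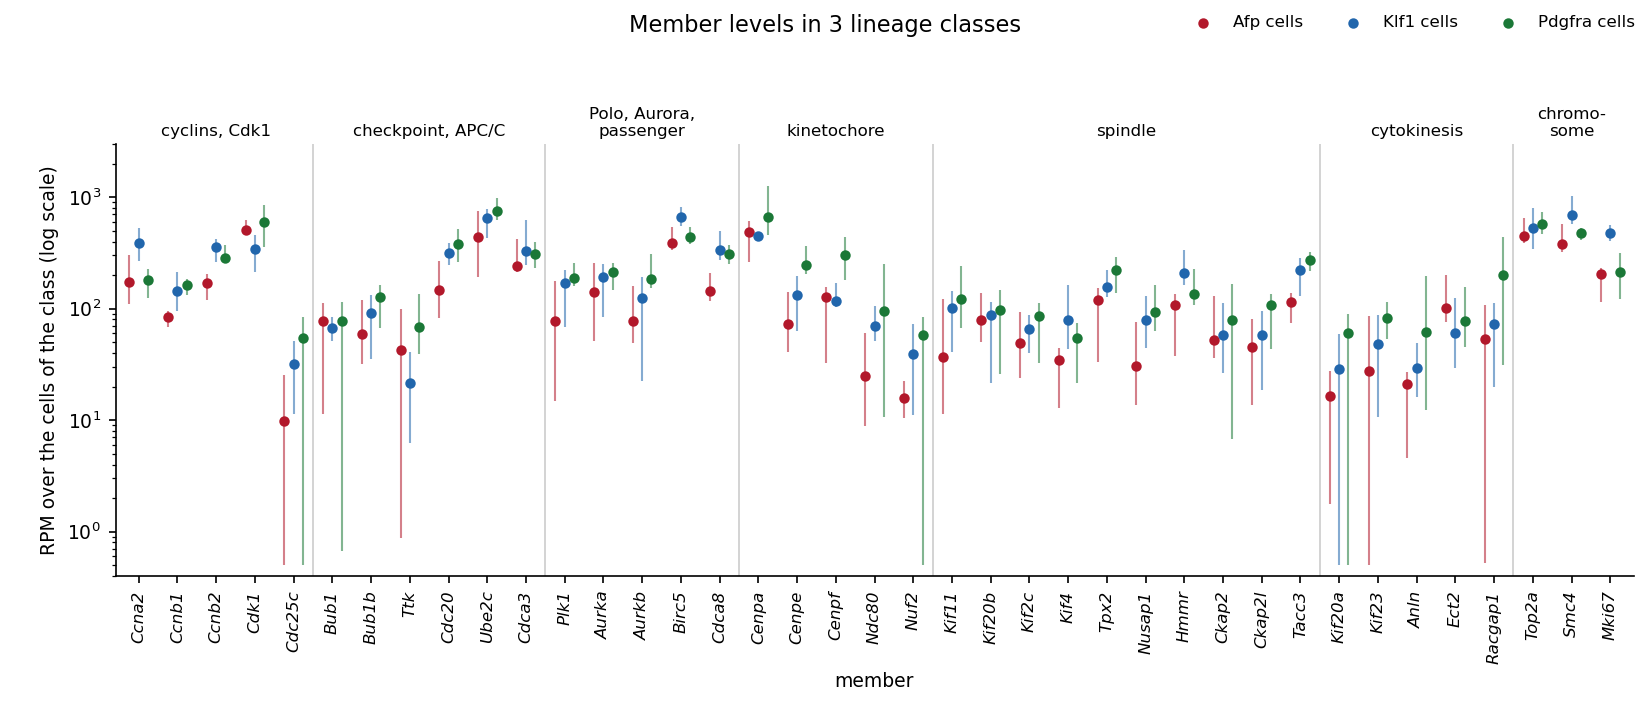
RPM of the 39 members with reads (x axis, grouped by role) over all cells of a class (y axis, log scale), with Afp cells in red, Klf1 cells in blue and Pdgfra cells in green. Points are the class values, vertical lines are the range over pools, pool values below 0.5 RPM are drawn at 0.5, and Afp cells are the lowest class for genes such as *Ndc80* (24.9 RPM), *Plk1* (77.8) and *Ccnb1* (83.6).

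Klf1 and Pdgfra cells had similar amounts of mitotic reads. The summed level had a log2 ratio of −0.11 in Klf1 against Pdgfra cells and was above 0 in 2 of 5 pools, with a range over pools of −0.40 to 0.09. This comparison shares its cells with those above, and most Klf1 cells were E13.5 bulk while most Pdgfra cells were from E10.5. Of 39 members, 30 were below 0, with a median of −0.28, against a median of −0.22 over all genes. With each gene's log2 ratios averaged over the 5 pools, these medians were −0.28 and −0.03. Whether the members as a list stood apart from all genes thus depended on the weight given to the pools. Past 2-fold, 2 members were higher and 5 lower, where 16.7% of all genes were higher and 34% lower. *Mki67* (481.1 against 211.2 RPM, log2 ratio 1.19) and *Ccna2*, the cyclin of S and G2 phase (392 against 182.4 RPM, 1.10), were the members past 2-fold higher in Klf1 cells. Both were higher in 5 of 5 pools, over ranges of 0.33 to 1.93 and 0.76 to 1.41. The median Klf1 cell had 326 RPM of *Ccna2* and the median Pdgfra cell 15.99, with 19 of 160 and 38 of 150 cells at 0. *Hmmr*, a spindle protein, came next (210 against 136.2 RPM, 0.62), and *Birc5* and *Smc4* were also higher in all 5 pools (0.58 and 0.54).

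The 5 members past 2-fold lower in Klf1 cells were *Ttk* (21.5 against 68.3 RPM, log2 ratio −1.66), *Racgap1* of the centralspindlin complex (73.2 against 200 RPM, −1.45), *Cenpf* (117.5 against 299.9 RPM, −1.35), *Anln* (−1.10) and *Kif20a* (−1.07). *Ttk* and *Cenpf* were lower in all 5 pools, over a range of −1.96 to −0.09 for *Cenpf*, while *Racgap1* was lower in 3 of 5. The cytokinesis genes had the lowest median of the roles, −1.07, with 3 of 5 genes past 2-fold lower. Kinetochore genes followed at −0.57, and chromosome genes were the only role with a median above 0, at 0.54. *Tpx2* was lower in Klf1 cells in all 5 pools (156.2 against 222.5 RPM, −0.51) and *Cdk1* in 4 of 5 (341 against 602 RPM, −0.82). *Plk1* (−0.15), *Ccnb1* (−0.18), *Ube2c* (−0.23), *Kif11* (−0.25), *Cdc20* (−0.27), *Ndc80* (−0.45, but above 0 in 3 of 5 pools) and *Aurkb* (−0.59) lay in between.

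Genes that act earlier in the cycle were higher in Klf1 cells. Of 36 DNA replication genes that passed the filter, such as the MCM helicase and the clamp of DNA polymerase, 32 were above 0 in Klf1 against Pdgfra cells and 10 were past 2-fold higher with 0 lower, at a median of 0.71. The 37 listed genes with reads summed to 9498 RPM in Klf1 cells, 5724 in Pdgfra cells and 5810 in Afp cells. Klf1 against Afp cells gave 13 higher and 1 lower, where 22.1% and 27.3% of all genes were, and Pdgfra against Afp cells 3 higher and 3 lower, where 30.2% and 14.2% were. A list of 10 further genes, of D cyclins and of cell cycle arrest, had 1 higher and 5 lower in Klf1 against Pdgfra cells (median −1.22), and all 11 genes listed summed to 633 RPM in Klf1 cells, 2003 in Pdgfra cells and 1400 in Afp cells. A further list of 46 mitotic genes outside the members gave 3 higher and 7 lower in Klf1 against Pdgfra cells, with a median of −0.08, fewer in both directions than the 16.7% and 34% of all genes.

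Between stages, the mitotic genes of Klf1 cells differed little. There were 32 Klf1 cells at E10.5, all bulk, and those at E13.5 were bulk but for 3. The members summed to 7341 RPM at E10.5 and 8309 RPM at E13.5 (log2 ratio 0.18, above 0 in 3 of 3 pools, 0.02 to 0.36). Of 39 members 20 were above 0, the median was 0.01 against −0.02 over all genes, and 2 were past 2-fold higher and 2 lower where 16.3% and 16% of all genes were. The highest ratios were those of *Kif2c*, a kinesin that takes microtubules apart (74.1 against 35.6 RPM, 1.06), the chromosome-bound kinesin *Kif4* (1.01, higher in 2 of 3 pools) and *Nusap1* (0.93). The lowest were those of *Kif20a* (23.3 against 49.3 RPM, −1.08), *Nuf2* (−1.0) and *Ckap2* (−0.61), but *Nuf2* and *Ckap2* were higher at E13.5 within 2 of 3 pools, and *Kif20a* within 1 of 3. *Mki67* was higher at E13.5 in 3 of 3 pools (533 against 296 RPM, 0.85), while *Cdk1* was lower in 3 of 3 (315 against 432 RPM, −0.46). The erythroid list summed to 3167 RPM at E10.5 and 8771 RPM at E13.5, in pools from 2643 to 4069 and from 7289 to 12025, with all 10 genes read at both stages. Its part in the differences was not tested.

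The share of mitotic-high Klf1 cells had the opposite direction, 25 of 32 at E10.5 (78.1%) and 70 at E13.5 (54.7%). In pools 3 to 5 it was 25 of 26 (96.2%) and 67 of 81 (82.7%), and in pools 1 and 2, 0 of 6 and 3 of 47 (6.38%). The E13.5 cells thus lay more often in pools 1 and 2, where few cells of any kind reached 20 members. Among cells with no marker 64 (37%) were mitotic-high at E10.5 and 16 (16.2%) at E13.5.

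Within E10.5 Pdgfra cells, Lgr5-GFP+ cells had more mitotic reads than bulk cells. The 66 Lgr5-GFP+ cells ranged from 88.8 to 20042 RPM for the sum of members with a median of 9772, and the 76 bulk cells from 20.7 to 28029 with a median of 5617. The ranges overlapped, but 22 of 76 bulk cells were below 2000 RPM (28.9%) and 4 of 66 Lgr5-GFP+ cells (6.06%), while 34.2% and 50% reached 10000 RPM. The members summed to 12106, 11300, 10870, 9272 and 9269 RPM in Lgr5-GFP+ cells of pools 1 to 5 and to 8621, 10157, 5337, 6028 and 8605 RPM in bulk cells, so the Lgr5-GFP+ cells were higher in each pool. Over all pools the sums were 10361 and 7563 RPM, a log2 ratio of 0.45 (1.37-fold, pools 0.11 to 1.03).

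Of 39 members 32 were above 0 in this comparison, at a median of 0.46 against 0.01 over all genes. Past 2-fold, 6 were higher and 0 lower, where 13.7% of all genes were higher and 13% lower, a share near that of all genes for the higher members, so the shift lay in the sign and median of the list rather than in its large ratios. Only 2 members were higher in each of the 5 pools, as were 3.53% of all genes. These were *Top2a* and *Smc4*. *Top2a* had a median of 651 RPM in Lgr5-GFP+ cells with 1 of 66 cells at 0 and of 102.3 RPM in bulk cells with 7 of 76 at 0. Over the groups it stood at 795 and 402 RPM (log2 ratio 0.98, pools 0.21 to 1.94). *Smc4* had medians of 520.5 and 340 RPM and stood at 555 and 386 RPM (0.53, pools 0.20 to 0.89). *Mki67*, the remaining chromosome gene, had more than 10 reads in 78.8% and 44.7% of cells and was higher in 4 of 5 pools (0.99).

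Past 2-fold were *Kif4* (85.4 against 28.6 RPM, log2 ratio 1.58), *Anln* (65.3 against 24.8, 1.39), the spindle protein *Ckap2l* (160 against 70.6, 1.18), borealin *Cdca8* (446 against 198.9, 1.17), *Plk1* (269.7 against 121.4, 1.15) and *Ect2* (89.7 against 43.4, 1.05), each of them higher in 4 of 5 pools. For *Plk1* the median cell had 142.5 RPM among Lgr5-GFP+ and 1.10 RPM among bulk cells, and 68.2% and 28.9% of cells had more than 10 reads. *Kif4* was at 0 in 24 of 66 and 49 of 76 cells. Among the genes of mitotic entry and exit, *Ccnb1* had medians of 136.4 and 17.7 RPM, *Cdk1* of 561 and 197.9 RPM and *Ube2c* of 684 and 143.1 RPM, with log2 ratios over the groups of 0.46, 0.47 and 0.69. *Cdc20* (0.45), *Birc5* (0.57) and *Tpx2* (0.74) were of the same order. Not all members took part, as *Ttk* (54.5 against 81.4 RPM, −0.58), *Ccnb2* (259 against 328 RPM, −0.34), *Nusap1* (−0.25), *Aurkb* (−0.23) and *Kif11* (−0.22) were below 0, and *Ndc80* (0.12) and *Cenpf* (0.19) were near it.

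**Figure D4:**
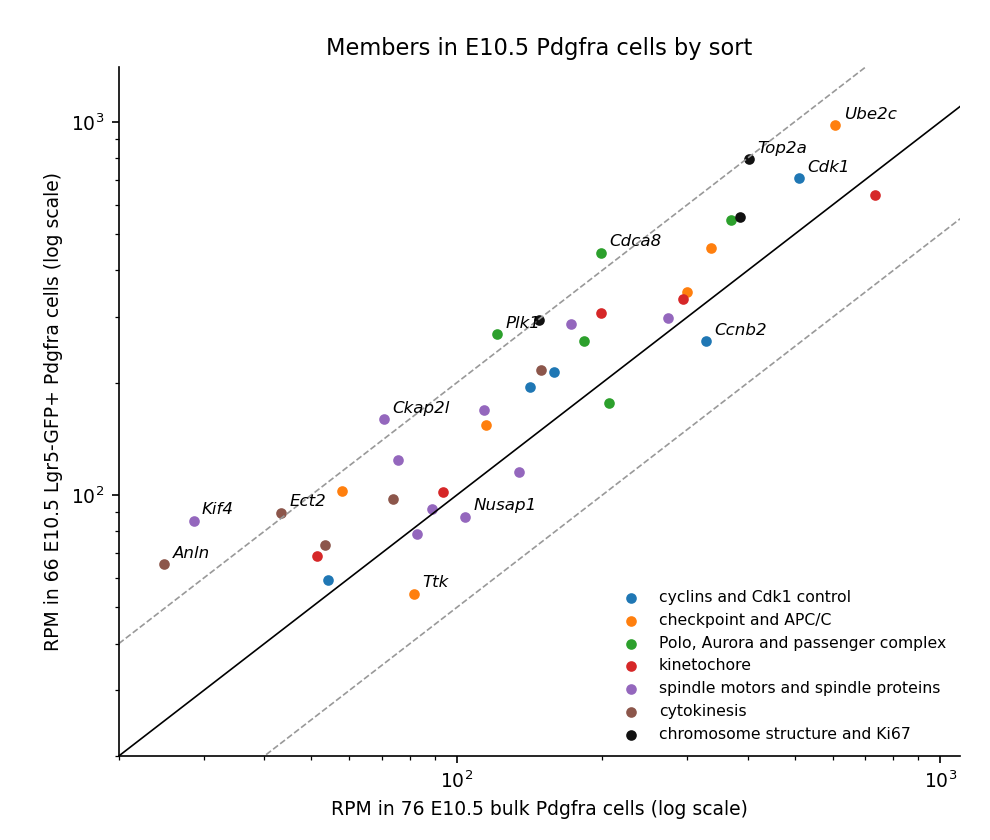
RPM of each member over 66 E10.5 Lgr5-GFP+ Pdgfra cells (y axis, log scale) against 76 E10.5 bulk Pdgfra cells (x axis, log scale), with points coloured by role. The solid line marks equal levels and the dashed lines 2-fold, and 32 of 39 members lie above the solid line with 6 beyond 2-fold.

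Other cell cycle lists had smaller or opposite medians between these sorts. The list of 46 further mitotic genes had 33 above 0, with a median of 0.21 against 0.46 for the members. Past 2-fold, 9 of them were higher and 1 lower, where 13.7% and 13% of all genes were. The 37 DNA replication genes with reads summed to 5299 RPM in Lgr5-GFP+ and 6312 RPM in bulk cells, with 7 of 36 above 0 and a median of −0.31. The mesenchyme list summed to 6069 and 4939 RPM in Lgr5-GFP+ and bulk cells (pools 3792 to 9203 and 3767 to 7866, 7 of 8 genes with reads, *Tcf21* at 0). The erythroid list summed to 61.9 and 155.1 RPM (pools 2.10 to 175.9 and 27.3 to 582, all 10 genes with reads) and the hepatoblast list to 241 and 289 RPM (pools 107.9 to 387.5 and 162.4 to 561.6). Their part in the difference was not tested. Median reads per cell were 1262832 and 1141586, and median genes per cell 6757 and 5443.

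The share of mitotic-high cells moved the same way as the summed level, at 47 of 66 Lgr5-GFP+ cells (71.2%, 58.8 to 81.7) and 25 of 76 bulk cells (32.9%, 22.5 to 44.6). Within pools 3 to 5 it was 89.1% and 44.7%, and within pools 1 and 2 it was 30% of 20 and 13.8% of 29.

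Cells with no marker gave a smaller difference between sorts at E10.5 and one at E13.5 whose direction changed with the pools taken. At E10.5 the members summed to 8809 RPM in 89 Lgr5-GFP+ cells and 7737 RPM in 84 bulk cells (log2 ratio 0.19, above 0 in 5 of 5 pools, 0.10 to 0.48). Of 39 members 25 were above 0, and past 2-fold were *Ttk*, higher (78.5 against 35.5 RPM, 1.15, but in 2 of 5 pools), and *Anln*, lower (−1.14, but higher in 3 of 5 pools), where 16.2% of all genes were higher and 14.7% lower. *Ube2c* (954 against 621 RPM, 0.62) and *Top2a* (665 against 509 RPM, 0.39) were higher in 5 of 5 pools. The mitotic-high share was 47.2% in Lgr5-GFP+ and 26.2% in bulk cells. These sorts also differed in makeup, as the muscle progenitor list summed to 286 RPM in Lgr5-GFP+ and 13.9 RPM in bulk cells (pools 4.54 to 587 and 0.139 to 44, all 3 genes with reads in both) and the mesenchyme list to 1704 and 2759 RPM. The part of this in the difference was not tested.

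At E13.5 the members summed to 5875 RPM in 67 Lgr5-GFP+ cells and 6286 RPM in 32 bulk cells with no marker, and only 2 pools held enough cells of both. The log2 ratio was −0.10 over all pools and −0.08 and −0.49 within these 2, but it reversed with other sets of pools. Past 2-fold, 8 members were higher and 6 lower, which is below the 39.1% and near the 20% of all genes that were. *Racgap1* (6.43 RPM in bulk cells, log2 ratio 4.03), *Aurka* (73.8 against 4.85 RPM, 3.93) and *Cdc25c* (52.4 against 7.25 RPM, 2.85) were highest in Lgr5-GFP+ cells. *Ndc80* (24.4 RPM in Lgr5-GFP+ cells, −2.56), *Kif11* (20.6 against 99.6 RPM, −2.27) and *Bub1b* (−1.39) were lowest. The cells compared were not of the same kinds, since the erythroid list summed to 690 RPM in Lgr5-GFP+ and 5863 RPM in bulk cells (pools 210.6 to 1358 and 126.8 to 9479, all 10 genes with reads) and the mesenchyme list to 3552 and 77.9 RPM (pools 16.4 to 8081 and 12.1 to 481, 7 of 8 genes with reads). Their part in the differences was not tested.

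Over the labelled groups without regard to lineage, the members summed to 8401 RPM in E10.5 Lgr5-GFP+ cells, 7321 RPM in E10.5 bulk cells, 5961 RPM in E13.5 Lgr5-GFP+ cells and 7851 RPM in E13.5 bulk cells. The mitotic-high shares were 50.7% (43.8 to 57.6), 36% (29.4 to 43), 22.5% (13.9 to 33.2) and 45.9% (38 to 54) in the same order. The order at E10.5 was thus the reverse of that at E13.5, where most bulk cells were Klf1 cells and most Lgr5-GFP+ cells had no marker, so stage, sort and lineage cannot be told apart in these shares.

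Genes outside the members were compared between mitotic-high and other cells of the same class. Among 46 further mitotic genes, such as *Foxm1*, *Aspm* and *Nek2*, 18 were past 2-fold higher in mitotic-high Pdgfra cells (74 against 76 cells, median log2 ratio 0.84), where 17.6% of all genes were. In pools 3 to 5 alone 35 of them were (median 1.75, 14.9% of all genes). In Klf1 cells 8 were higher (95 against 65 cells, median 0.06, 23.4% of all genes), near the share of all genes, and 17 in pools 3 to 5 (median 0.65, 22% of all genes). In Afp cells 12 were higher (19 against 42 cells, median 0.46, 23.9% of all genes), also near the share of all genes, and 6 were lower (17.9% of all genes). Nearly all mitotic-high Afp cells lay in pools 3 to 5 and most other Afp cells in pools 1 and 2, so call and pool cannot be told apart there. In cells with no marker 14 were higher (80 mitotic-high cells, median 0.64, 11.9% of all genes). The DNA replication list had 4, 1, 3 and 1 genes past 2-fold higher in Afp, Klf1, Pdgfra and no-marker cells, below these shares of all genes. Its medians ran from −0.07 to 0.19, those of all genes from 0.01 to 0.16. In Klf1 cells its median, 0.19, was above that of the further mitotic genes. Between cells above and below 10000 RPM its medians were −0.14, −0.46 and −0.54 in Klf1, Pdgfra and no-marker cells. Those of all genes were −0.25, −0.03 and −0.14.

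The largest ratios in Pdgfra cells were those of the centrosome kinase *Nek2* (48.2 against 5.63 RPM, log2 ratio 3.10), the phosphatase *Cdc25b* (2.95), the spindle pole gene *Aspm* (147.8 against 19.2 RPM, 2.95), *Kif22* (139.3 against 22.7 RPM, 2.62) and cyclin F, *Ccnf* (2.42). The smallest were those of *Ung*, which removes uracil from DNA (16.4 against 105.7 RPM, −2.69), *Sgo2a* (−1.57) and the replication licensing factor *Cdc6* (37.3 against 103.9 RPM, −1.48). In Klf1 cells *Troap* had 2 reads in the other cells, which gave a log2 ratio of 10.04 with a counting interval of 8.19 to 13.09. It was followed by *Ccng2* (17.6 against 1.03 RPM, 4.09), *Ccnd1* (4.03, with 4 reads in the other cells), *Mybl2*, which encodes B-Myb (41.6 against 8.41 RPM, 2.31), and *Psrc1* (1.97). The smallest were the Cdk inhibitor *Cdkn1c* (2.04 against 26.2 RPM, −3.69), *Gas1* (−1.97) and cyclin D2, *Ccnd2* (−1.52). Pools 3 to 5 held 92 of the 95 mitotic-high Klf1 cells but 15 of the 65 others. The ratios of these single genes were not taken within pools, so call and pool cannot be told apart in them. In Pdgfra cells pools 3 to 5 held 64 of 74 mitotic-high and 33 of 76 other cells.

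In Afp cells *Cdc25b* had 1 read in the other cells and a log2 ratio of 8.26 (counting interval 5.76 to 13.58), followed by *Foxm1*, which encodes an activator of mitotic genes (71.7 against 2.004 RPM, 5.16), *Troap* (4.45), *Gas1* (4.26) and *Btg2* (110 against 5.79 RPM, 4.25). *Sgo2a* (−2.91), *Gins3* (−2.63) and *Arhgap11a* (−2.53) were smallest. As in Klf1 cells, the ratios in Afp cells were not taken within pools, and the mitotic-high and other Afp cells lay mostly in different pools. In cells with no marker the largest were *Cep55* (3.01), which acts in the last cut between daughter cells, *Troap* (2.79), *Ccnf* (2.33), *Nek2* (2.22) and *Gtse1* (2.18), and the smallest *Cdkn1c* (−1.12), *Cenpk* (−1.06) and cyclin E2, *Ccne2* (−0.97). Of the 10 that passed the filter, arrest genes and D cyclins past 2-fold higher in mitotic-high cells were 6 in Afp, 2 in Klf1, 1 in Pdgfra and 0 in no-marker cells. Of all genes, 23.95%, 23.4%, 17.6% and 11.9% were. Past 2-fold lower were 0, 3, 1 and 1 of them, and 17.9%, 12.4%, 11.7% and 11.8% of all genes.

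Cell cycle phase was also called for each cell with cyclone, which compares pairs of genes within a cell. Of its 667 genes, 34 are members, so the calls are not independent of them. G2M calls were rare in Afp cells (3 of 61, 4.92%, interval 1.03 to 13.7) and Klf1 cells (10 of 160, 6.25%, 3.04 to 11.2) and common in Pdgfra cells (61 of 150, 40.7%, 32.7 to 49), with 67 of 272 cells with no marker between (24.6%, 19.6 to 30.2). After thinning to 400000 reads the shares were 6.56%, 6.25%, 43.3% and 22.1%, and with the members left out of the counts 6.56%, 3.75%, 40.7% and 22.8%. Klf1 cells had instead 51 S calls, against 7 in Afp, 21 in Pdgfra and 33 in no-marker cells. Mitotic-high Klf1 cells were called G2M in 9 of 95 cases (9.47%), and mitotic-high Pdgfra cells in 51 of 74 (68.9%). Even among cells with at least 10000 RPM of mitotic reads, 9 of 44 Klf1 cells (20.5%) and 50 of 61 Pdgfra cells (82%) were called G2M. Within each class the summed level was higher with later calls, with medians of 6330, 10201 and 12352 RPM for G1, S and G2M in Klf1 cells, 3441, 8303 and 13572 RPM in Pdgfra cells, and 4404, 7665 and 11038 RPM in Afp cells. The calls also differed between pools. Of all cells, 18.02% were called G2M in pools 1 and 2 and 24.32% in pools 3 to 5. Among cells not mitotic-high these shares were 12.45% and 0%. All 3 G2M-called Afp cells lay in pool 3, and pool 2, with 33 of the 61 Afp cells, held none. Shares by class and sort were not taken within pools, so the part of pool in them was not tested. No cycling is read from these calls alone.

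**Figure D5:**
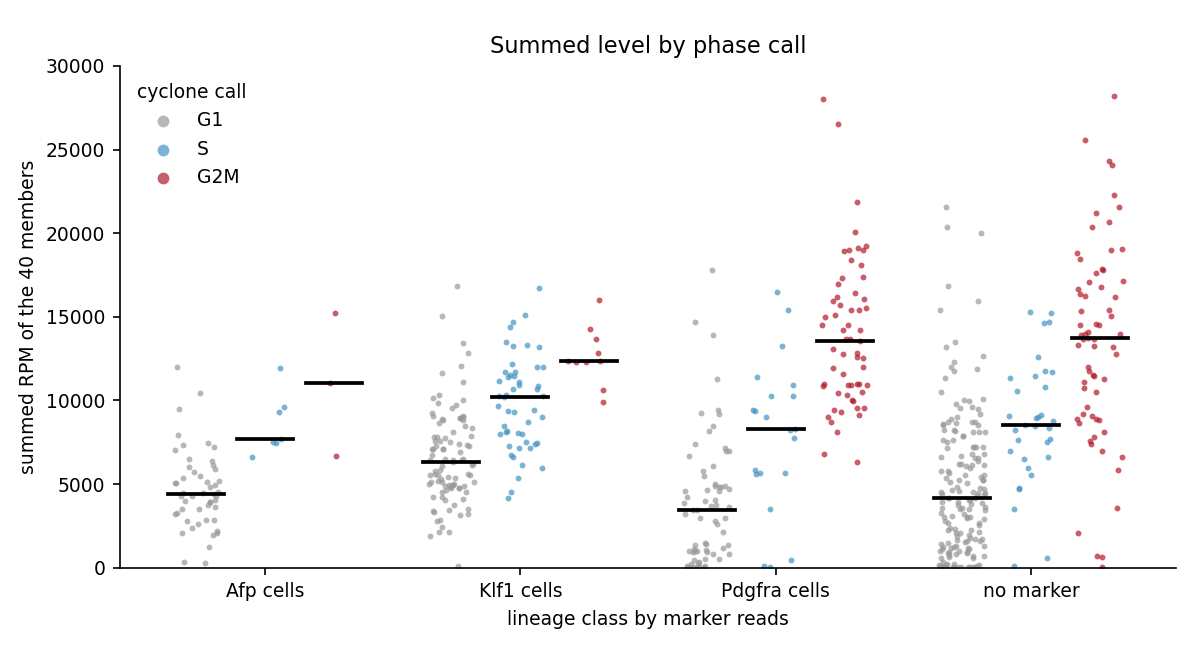
Summed RPM of the 40 members in each cell (y axis, linear) by cyclone phase call (colours) in 4 classes (x axis), with bars at medians. G2M-called Klf1 cells are few (10 of 160) with a median of 12352 RPM, and G2M-called Pdgfra cells are many (61 of 150) with a median of 13572 RPM.

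By sort, 38 of 66 E10.5 Lgr5-GFP+ Pdgfra cells (57.6%, 44.8 to 69.7) and 22 of 76 bulk Pdgfra cells (28.9%, 19.1 to 40.5) were called G2M. Over the labelled groups the G2M share was 36% of E10.5 Lgr5-GFP+, 21.2% of E10.5 bulk, 13.8% of E13.5 Lgr5-GFP+ and 6.92% of E13.5 bulk cells. With the members left out of the counts these shares were 37.4%, 19.2%, 12.5% and 3.15%, and the shares of E10.5 Pdgfra cells stayed at 57.6% and 28.9%.

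The members varied together from cell to cell most clearly in Pdgfra cells. Spearman's rank correlation of each member with the sum of the other members, within pools 3 to 5, had a median of 0.60 over the 39 members in 97 Pdgfra cells (0.28 for *Cdc25c* to 0.88 for *Ube2c*), 0.34 in Klf1 cells (0.05 for *Racgap1* to 0.67 for *Ube2c*) and 0.40 in 25 Afp cells (−0.23 for *Ccnb2* to 0.73 for *Cenpf*). In Pdgfra cells *Ccnb1* reached 0.81, *Cdca8* 0.74 and *Aurka* 0.73. In pools 1 and 2 the medians were 0.34, 0.14 and 0.15 in Pdgfra, Klf1 and Afp cells. These are descriptions, since the cells share pools and each cell's members share its library.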

How the data were processed

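The authors aligned single-end Smart-seq2 reads to GRCm38.p6 with STAR 2.6.0c and counted uniquely aligned reads per Ensembl gene with Subread 1.6.2. The deposited counts are raw and not normalised. A second deposited table of normalised variable genes, a score without a unit, was not used. All 653 cells were used (211 Lgr5-GFP+ and 203 bulk cells at E10.5, 80 Lgr5-GFP+ and 159 bulk cells at E13.5), 0 columns were left unused, and 54042 of 54195 genes could be named. In every cell 25903 genes are listed at 0.

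RPM are reads summed over the cells of a class per 1000000 reads on all genes, and ratios were taken of these sums for the 11178 genes with at least 5 RPM over all cells. Pool values were given for pools with at least 5 cells of each class. RPKM used the summed exon length. Each group is 1 sample, so no p-value was computed. The labels do not tie pools to animals or sorts. Intervals are 95% exact intervals. Thinning to 400000 reads left out 0 cells. No doublet caller was run, since cells were sorted singly. Phases were called with cyclone in scran 1.30.0 (R 4.3.3), and other steps used Python 3.11.15 with NumPy 2.4.6, SciPy 1.17.1, pandas 2.3.3 and matplotlib 3.10.9, tested on simulated data. The members and lists were chosen with earlier results of these data known. Named were 15 preset members, the 3 largest and 3 smallest ratios of each comparison, and the 5 largest and 3 smallest of the other lists per class. Further members were named after their values were seen, in the Klf1, sort and phase comparisons. Alternatives were other limits of reads and members, thinning, mean RPM per cell, median-ratio scaling, 1.5-fold, other marker limits, and pools left out or taken apart. The limits of 2000 and 10000 RPM, the ratios of summed levels, the split by *Lgr5* reads, the separate treatment of pools for the other lists and for phases, and the rank correlations were chosen after seeing the data.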

Additional observations from a re-analysis of the deposited data

How the results depend on the processing

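No paired analysis was possible because the labels carry no replicate numbers and each group is 1 sample. Without a cause tested, the following values moved. Shares of mitotic-high Afp, Klf1, Pdgfra and no-marker cells were 72.1%, 86.9%, 73.3% and 55.2% with 10 of 40 members required, 6.56%, 21.2%, 26.7% and 12.9% with 30, 2.78%, 5.66%, 18.9% and 8.57% in pools 1 and 2, and 72%, 86%, 66% and 51.5% in pools 3 to 5. By at least 10000 RPM they were 8.20%, 27.5% and 40.7% in the marked classes. Leaving out each pool gave 22% to 67.9% (without pool 2), 49.1% to 72.7%, 43.6% to 56.7% and 24.9% to 38.3%. For E10.5 Lgr5-GFP+, E10.5 bulk, E13.5 Lgr5-GFP+ and E13.5 bulk cells the shares were 76.8%, 67%, 40% and 75.5% with 10 members, 25.1%, 15.3%, 8.75% and 14.5% with 30, 14.1%, 9.64%, 5% and 4.41% in pools 1 and 2, 79%, 54.2%, 40% and 76.9% in pools 3 to 5, and 32.7%, 27.6% and 27.7% (both E10.5 groups and E13.5 bulk) by 10000 RPM, with left-out pools giving 42.4% to 64%, 29.8% to 43.8%, 16.4% to 32.1% and 37.3% to 57.6%.

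The share of Klf1 cells at E13.5 minus E10.5 (−23.4 percentage points) reversed to 18.8 by 10000 RPM (left-out pools −31.9 to −13.9). In no-marker cells (−20.8) it was −8.33 in pools 1 and 2 (−29.2 to −16.9). Lgr5-GFP+ minus bulk in E10.5 Pdgfra cells (38.3) was 16.2 in pools 1 and 2 and 15.8 by 10000 RPM (28.6 to 44.8). In E10.5 no-marker cells (21) it was 5.003 by 10000 RPM (16.8 to 32.6), and at E13.5 (5.41) left-out pools gave −1.09 to 7.74. The summed level in Klf1 against Pdgfra cells reversed to 0.11 under median-ratio scaling (left-out pools −0.17 to −0.05), and that of E13.5 no-marker cells to 0.059 in pools 1 and 2 and also without pool 2 or pool 3 (−0.25 to 0.24). Left-out pools gave 0.48 to 0.68 for Klf1 and 0.57 to 0.84 for Pdgfra against Afp cells, 0.12 to 0.29 between stages, and 0.31 to 0.54 and 0.14 to 0.24 between sorts of E10.5 Pdgfra and no-marker cells.

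Members past the fold limit in Klf1 against Afp cells (12 higher, 0 lower) were 22 and 3 at 1.5-fold, with 3 lower in pools 1 and 2 and 2 in pools 3 to 5 (left-out pools 9 to 17 and 0 to 2). Lower in Klf1 than in Pdgfra cells (5) were 3 by median-ratio scaling, 11 at 1.5-fold, 12 in pools 1 and 2 and 1 in pools 3 to 5 (4 to 8). Pdgfra against Afp cells gave 16 to 22 higher with pools left out. Between stages of Klf1 cells (2 higher, 2 lower) 0 and 0 were past it by the mean over cells, 7 higher at 1.5-fold, 1 and 0 in pools 3 to 5, 0 and 0 at 100 marker reads, 1 lower by median-ratio scaling and 0 lower with several markers allowed (0 to 4 and 1 to 2). Between sorts of E10.5 Pdgfra cells (6 higher, 0 lower) there were 13 higher at 1.5-fold and 7 lower in pools 1 and 2 (4 to 9 and 0). In E10.5 no-marker cells (1 and 1) there were 2 higher by the mean, 7 and 2 at 1.5-fold, 6 and 2 in pools 1 and 2, 5 and 0 in pools 3 to 5 and 2 and 0 at 100 marker reads (1 to 2 and 0 to 2). At E13.5 (8 and 6) 12 were lower by median-ratio scaling and at 1.5-fold (7 to 14 and 6 to 9).

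Further mitotic genes past 2-fold higher in mitotic-high Afp (12), Klf1 (8), Pdgfra (18) and no-marker cells (14) were 20, 22, 30 and 30 with 10 members. Of all genes, 42.9%, 45.9%, 26.4% and 15.6% were, so the counts in Afp and Klf1 cells were near that share. With 30 members 5 were in Klf1 cells (9.86% of all genes). In pools 3 to 5 they were 17, 35 and 36 in the last 3 classes (22%, 14.9% and 11.2%). By 10000 RPM 33 were in no-marker cells (9.54%). DNA replication genes (4, 1, 3 and 1) were 12, 10, 10 and 6 with 10 members, below the shares of all genes in Afp and Klf1 cells and near them in the others. In the last 3 classes they were 0, 0 and 2 with 30 members (9.86%, 11.8% and 9.53% of all genes). They were 0 in Klf1 and 2 in no-marker cells after thinning (22.1% and 12.7%) and 0, 0 and 3 in pools 3 to 5. By 10000 RPM they were 0, 1 and 0 (7.59%, 11.7% and 9.54%), with 3, 12 and 9 lower (24.5%, 14.7% and 21.3%). Arrest genes in Klf1 (2), Pdgfra (1) and no-marker cells (0) were 4, 2 and 1 in pools 3 to 5 and 1, 0 and 1 by 10000 RPM, with 1 in Klf1 cells with 30 members and 1 in no-marker cells with 10, with 30 and after thinning. The shares of all genes at these settings are those just given. The G2M shares of mitotic-high and other cells in the 4 classes stayed within their intervals after thinning and with the members left out, but with the members left out the share of all E13.5 bulk cells, 6.92%, was 3.15%, below its interval. Of 76 alternative values of the summed levels 4 reversed, as given above.

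Without animals, litters or sorts in the labels, depth is not the limit of these comparisons. Low members with a median near 0 reads per cell, such as *Ttk*, *Ndc80* and *Kif4*, rest on few cells, and counts of members per cell differ between pools at equal depth.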

Other observations

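*Lgr5* itself had more than 10 reads in 62 E10.5 Lgr5-GFP+ cells (29.4%), 5 E10.5 bulk cells (2.46%), 3 E13.5 Lgr5-GFP+ cells (3.75%) and 1 E13.5 bulk cell (0.629%). The mitotic level of E10.5 Lgr5-GFP+ cells was therefore also split by *Lgr5* reads, a split chosen after the data had been seen. Pdgfra cells with more than 10 *Lgr5* reads (18 cells) summed to 9711 RPM of the members and the other 48 to 10645 RPM, with 15 and 32 mitotic-high cells. Pools 1 and 2 held 13 and 6 of these 48 cells, but of the 18 only 1, in pool 2. Mitotic-high were 7 of 7 against 7 of 7 in pool 3, 6 of 7 against 14 of 15 in pool 4 and 2 of 3 against 5 of 7 in pool 5. Afp cells summed to 5472 RPM in 23 cells with and 5471 RPM in 30 cells without these reads, with 10 and 7 mitotic-high cells. The direction for Afp cells differed between pools, with 9209 against 4520 RPM in pool 3 (4 cells each) and 3149 against 6242 RPM in pool 5 (5 and 3 cells). In pool 2, 0 of 10 Afp cells with and 0 of 21 without these reads were mitotic-high. The counts were 4 of 4 against 2 of 4 in pool 3, 3 of 4 against 1 of 1 in pool 4 and 3 of 5 against 3 of 3 in pool 5. Cells with no marker summed to 5611 RPM in 20 cells with and 9700 RPM in 69 cells without them, with 13 and 29 mitotic-high cells. Of the latter 69, 38 were in pools 1 and 2, against 1 of the 20. Mitotic-high were 5 of 9 against 8 of 9 cells in pool 3, 4 of 4 against 6 of 8 in pool 4 and 4 of 6 against 9 of 14 in pool 5.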
